A study of Mus musculus with 10 samples.

Results

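Collagen chains were examined across CD51+CD200+ cells sorted from mouse femurs. The members were the rows of the deposited expression table whose gene symbol has the form of a collagen alpha chain (Col, a number, a and a number). In this table of 15078 genes, 42 rows matched, and 3 of them (Col2a1, Col9a1 and Col9a3) were left out by the rule, which left 39 chains. Each chain was placed in a class by the assembly its protein forms, and 37 of the 39 passed the filter on low values (a mean of at least 10 normalised counts over all libraries). The other two, Col4a3 and Col17a1, are given by their values only.

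The data were 10 RNA sequencing libraries in 3 groups. Graft BM-MSCs (n = 4) were CD51+CD200+ cells of the bone marrow that also carried Tomato, sorted 5 months after a femur was transplanted under the skin of the back. The donors were transgenic for Postn Cre-ER with a tdTomato reporter, the recipients were wild-type, and tamoxifen was given after transplantation. BM-MSCs (n = 3) came from the marrow and P-SSCs (n = 3) from the periosteum, the sheath on the outer surface of bone. Both were from wild-type mice at steady state. Their titles also call them host, the paper's word for a transplant recipient. They are read here as mice without treatment because of the words steady state. All 3 groups shared the sort on CD51 and CD200. The Tomato label follows every cell with an active Postn promoter at the time of tamoxifen, and Postn is also used by fibroblasts and osteoblasts. On that reading, BM-MSCs and P-SSCs differ from graft BM-MSCs in genotype, tamoxifen, surgery, the 5 months after it and Tomato sorting together. These cannot be told apart. BM-MSC 2+4 and P-SSC 2+5 each hold RNA joined from a pair of mice. The labels give no age. The paper's methods give a default age of some weeks for its mice, and graft cells were taken 5 months after transplantation. If that default held for donors and steady-state mice, the graft cells were older, but the age at sorting is not stated for any group.

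Collagens are secreted proteins in which 3 alpha chains wind into a triple helix. Fibrillar collagens form the fibrils of bone, tendon and skin, type IV collagens form the sheet of basement membranes, FACIT collagens sit on the surface of fibrils, network collagens form hexagonal lattices, and type VI collagen forms beaded filaments around cells. Type I collagen, made of Col1a1 and Col1a2 chains, is the main protein of bone matrix, and the periosteum is a fibrous tissue rich in types I and III.

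Libraries held 15415421 to 25223295 reads in genes, so that a floor of 3 reads came to 0.119 to 0.195 reads in 1e6, counting error only. Between 22.6% and 38.3% of genes were at 0 in graft libraries, against 11.5% to 19.0% in the other libraries. GC-rich transcripts (over 65% GC, 55 genes) stood 1.70 to 2.44 log2 units above transcripts of middle GC content (50 to 60%, 6268 genes) in the graft libraries and 1.37 above in P-SSC 4, relative to each gene's mean over libraries, while they stood 1.57 to 1.78 below in the other 5 libraries. Among the groups compared with the graft, only P-SSC 4 was on the graft's side of this split, so that the split and the group cannot be told apart between graft BM-MSCs and BM-MSCs. Marker genes followed the labelled tissues, except that Postn, the gene behind the Tomato label, was near 0 in the graft. Marrow stroma genes (Cxcl12, Lepr, Kitl, Adipoq, Foxc1 and Ebf3) summed to 667905 to 819818 normalised counts in graft BM-MSCs and to 830908 or more in BM-MSCs, but to 4579 to 8883 in P-SSCs, with Cxcl12 alone at 560618 or more in every marrow library and at most 7751 in P-SSCs. Periosteum genes (Postn, Pi16, Cd34, Fbln2 and Dpt) summed to 236290 to 427870 in P-SSCs, to 3855 to 5252 in BM-MSCs and to 0 to 713 in graft BM-MSCs. Postn itself was at 0 in 3 of the 4 graft libraries and at 235 in graft BM-MSC 4. Hematopoietic markers (8 genes) summed to 4341 to 48187 in graft BM-MSCs, to 59279 to 180687 in BM-MSCs and to 279 to 1178 in P-SSCs. Skeletal muscle markers summed to at most 248, 127 and 1340 in the same order, and the sort antigens Itgav and Cd200 to 2573 to 3962, 2058 to 3507 and 1781 to 2467. Their part in the collagen levels was not tested.

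Values below are normalised read counts, a read count divided by the size factor of its library. Values are listed in the order graft BM-MSC 1, 2, 3 and 4, then BM-MSC 1, 2+4 and 3, then P-SSC 1, 2+5 and 4. In bulk RNA, fewer cells that express a chain and less RNA of it per cell cannot be told apart. Log2 changes are on the log2(value + 1) scale, with a standard error (SE) and an adjusted p from one limma fit over all 13644 genes tested, and a chain was called at an adjusted p under 0.05. The median log2 change of all genes tested was -0.47 for graft BM-MSCs against P-SSCs, -0.53 for graft BM-MSCs against BM-MSCs and 0.00 for P-SSCs against BM-MSCs.

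The chains took a smaller part of the transcriptome in graft BM-MSCs than in both steady-state groups. They held 1.30% ± 0.57 (SD, n = 4) of all reads in graft BM-MSCs, with a range of 0.718% to 1.96%. They held 8.35% ± 2.42 (SD, n = 3) in BM-MSCs, with a lowest library at 5.61%, and 6.96% ± 1.24 (SD, n = 3) in P-SSCs, with a lowest library at 5.95%. All graft libraries lay below all others. Without Col1a1 and Col1a2, the shares were 0.719% in graft BM-MSCs, 1.05% in BM-MSCs and 3.95% in P-SSCs, so that BM-MSCs then stood nearer to graft BM-MSCs than to P-SSCs.

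The make-up of the collagen reads also differed. Col1a1 and Col1a2 together made up 86.9% ± 3.4 of the collagen reads in BM-MSCs, 44.7% ± 4.6 in graft BM-MSCs and 43.1% ± 1.9 in P-SSCs (SD). In P-SSCs the second large part was Col3a1, with 39.02% ± 1.94 of the collagen reads, against 6.67% ± 3.07 in graft BM-MSCs and 1.59% ± 0.88 in BM-MSCs. In graft BM-MSCs the beaded filament chains of type VI made up 20.2% ± 3.0 and Col8a1 alone 12.1% ± 6.3, while Col8a1 made up 0.688% in BM-MSCs and 0.489% in P-SSCs.

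**Figure D1:**
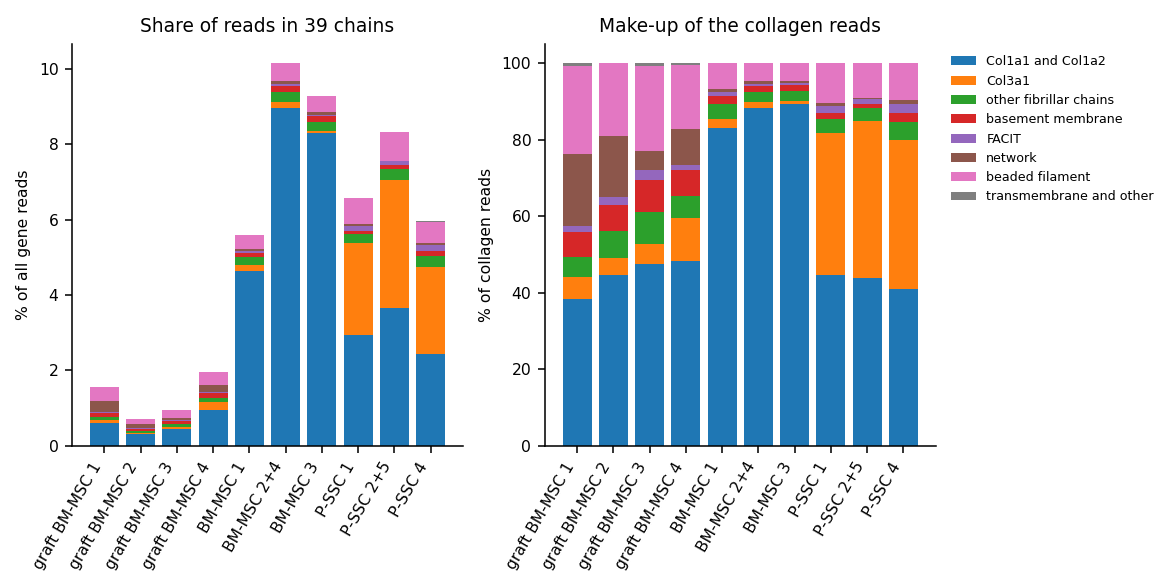
Stacked bars of reads in the 39 collagen chains in each of the 10 libraries, as a percentage of all reads in genes (left) and of the collagen reads of the library (right), coloured by chain or class. The 4 graft libraries lie between 0.718% and 1.96% on the left, below all other libraries, and the Col3a1 part on the right averages 39.02% in P-SSCs, 6.67% in graft BM-MSCs and 1.59% in BM-MSCs.

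Compared per kilobase of the longest protein-coding transcript, Col1a2 was the most abundant chain in graft BM-MSCs (12708 ± 5137 normalised counts per kilobase) and stood above the next chain, Col6a1 (5266 ± 1652), by more than both SDs. Col6a1, Col8a1 (4443 ± 2825), Col6a2 (3212 ± 1635), Col1a1 (2885 ± 1910) and Col3a1 (2565 ± 2187) followed in graft BM-MSCs without such a gap. In BM-MSCs, Col1a2 (127480 ± 35454) and Col1a1 (121706 ± 54040) led and did not differ beyond their spread, with Col6a1 next at 11827 ± 2053. In P-SSCs, Col3a1 (104228 ± 33897), Col1a2 (66744 ± 15912) and Col1a1 (47585 ± 18537) led, and neighbours in this order did not differ beyond their spread. By mean level, 21 chains were highest in P-SSCs, 10 in BM-MSCs and 8 in graft BM-MSCs. The graft mean was the lowest of the 3 for 24 chains, and 5 chains had a tie for the lowest. These counts were not made over all genes, whose median log2 change in the graft was also below 0 (-0.47 against P-SSCs and -0.53 against BM-MSCs).

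Chains with no read were more frequent in the graft. In every graft library 10 chains were at 0, against 5 chains in every BM-MSC library and 2 in every P-SSC library. Single libraries had 11 to 21 chains at 0 in graft BM-MSCs, 8 or 9 in BM-MSCs and 2 to 7 in P-SSCs. The share of all genes at 0 was also higher in the graft libraries, as given above.

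**Figure D2:**
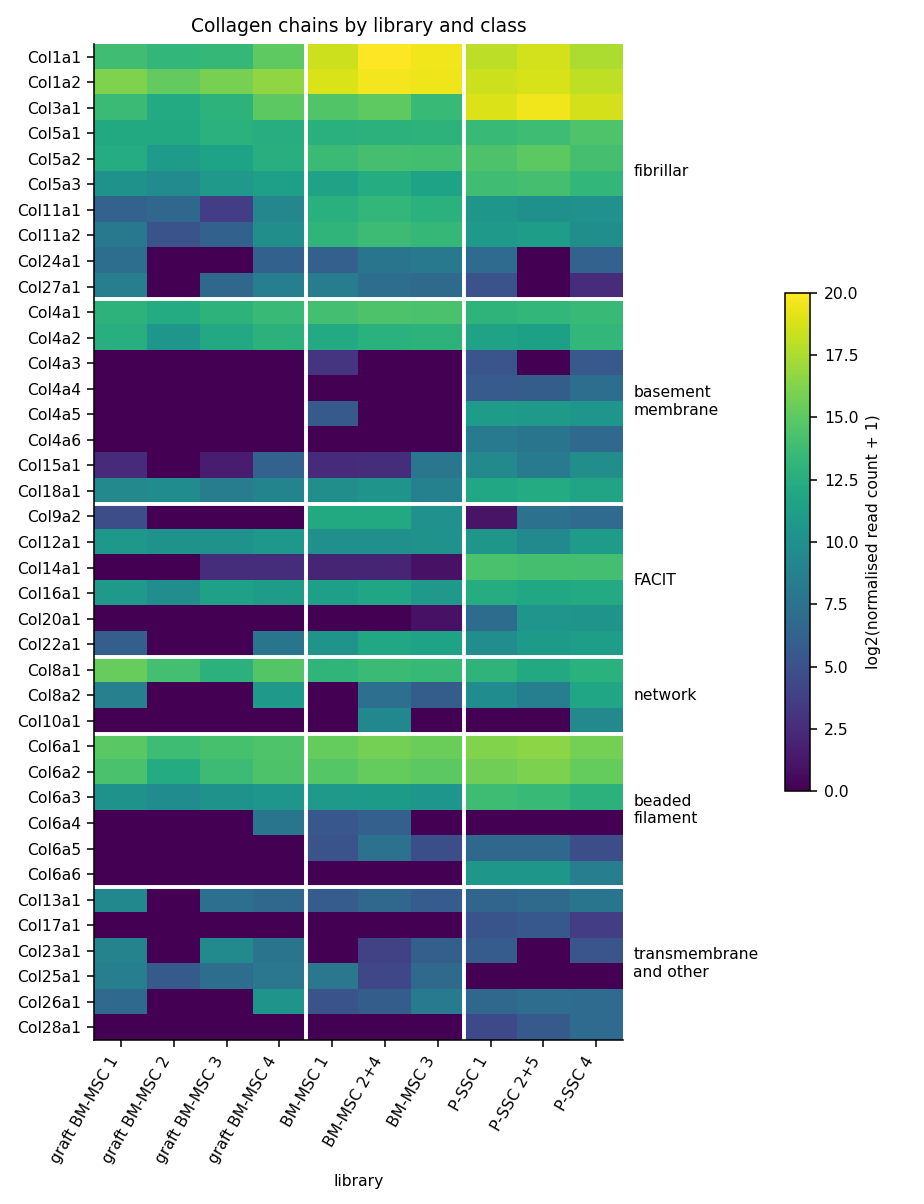
Heat map of log2(normalised read count + 1) for the 39 collagen chains (rows, grouped by class) in the 10 libraries (columns, grouped by cell population). Dark cells are at or near 0, and 10 chains are dark in all 4 graft libraries, while Col14a1, Col20a1, Col4a5 and Col6a6 lie at 136 normalised counts or more in all 3 P-SSC libraries and at 50.1 or less in all others.

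Against P-SSCs, 25 of the 37 chains tested were called in graft BM-MSCs, 23 lower and 2 higher. Of all genes tested 18.1% were called in this comparison, 12% lower and 6.08% higher. Under quantile normalization 1247 of 2488 called genes were higher, while the chains stood at 2 higher and 21 lower. The median log2 change of the chains was -3.15, against -0.47 for all genes. For 24 of the 37 chains the graft and P-SSC values had no overlap, as for 26.6% of all genes. By class, 8 of 10 fibrillar, 5 of 7 basement membrane, 4 of 6 FACIT and 5 of 6 beaded filament chains were lower and none of these was higher. Col4a4, Col4a5, Col4a6, Col14a1, Col20a1, Col6a6 and Col28a1 were at 0 or low outside P-SSCs and passed the filter on low values only through P-SSCs. Col25a1, at 0 in P-SSCs, passed it only through the marrow groups. For these chains the direction of a call involving P-SSCs was set by the filter. Of 3 network chains Col8a1 was higher, and of 5 transmembrane and other chains Col25a1 was higher and Col28a1 lower. In P-SSC 4, the P-SSC library with the graft's GC split, all 23 lower chains stood above every graft library and both higher chains below, and of all 2464 called genes 96.96% stood on the side of their call. P-SSC 4 was itself in the fit that made these calls, so its side was largely set by them and is no separate check of the GC split. With the GC split as a covariate 17 of the 25 calls were kept, and those of Col11a1, Col11a2, Col15a1, Col16a1, Col22a1, Col6a2, Col6a5 and Col8a1 were lost.

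Against BM-MSCs, 10 of the 37 chains were called lower in graft BM-MSCs and 0 higher in the limma fit, and neither edgeR nor DESeq2 called a chain higher. Of all genes 7.67% were called, 5.06% lower and 2.61% higher, a split that turned to 588 of 1023 higher under quantile normalization, where 8 chains were lower and 0 higher. The median log2 change of the chains was -1.21, against -0.53 for all genes. For 13 chains the values did not overlap, against 25% of all genes. The 10 were 5 fibrillar chains, 1 basement membrane chain, 2 FACIT chains and 2 beaded filament chains. With the GC split as a covariate, which then rests on P-SSC 4 alone, limma called 0 chains. At an unadjusted p under 0.05 it then had 10 chains, of which 7 were among the 10 called without the covariate. The other 3 of those 10 were Col5a2, Col6a1 and Col6a5, and Col5a1, Col4a2 and Col10a1 took their place.

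Between the steady-state groups, 12 chains were called higher and 1 lower in P-SSCs than in BM-MSCs. Of all genes 9.15% were called, 4.57% higher and 4.58% lower. The split of the chains moved to 11 higher and 5 lower under quantile normalization and to 10 and 4 with DESeq2, while edgeR called 7 higher and 1 lower. The median log2 change of the chains was 0.57, against 0.00 for all genes, and 24 chains did not overlap where 30.9% of all genes did not. The 12 higher chains were 3 fibrillar, 4 basement membrane, 2 FACIT and 2 beaded filament chains and Col28a1. All chains named above as passing the filter only through P-SSCs are among these 12. Within the 5 libraries in which GC-rich genes were low (3 BM-MSC and 2 P-SSC), 17 chains were called, and all 13 were among them. The comparisons share libraries: graft BM-MSCs enter the first and the second, P-SSCs the first and the third, and BM-MSCs the second and the third. All 3 also share the spread estimated in 1 fit.

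Over the 3 comparisons, 12 chains were lower in graft BM-MSCs than in P-SSCs, higher in P-SSCs than in BM-MSCs and not called between graft BM-MSCs and BM-MSCs. They include all the chains that passed the filter on low values only through P-SSCs, for which this pattern was largely set by the filter. A further 8 chains were lower in graft BM-MSCs than in either other group (Col1a1, Col1a2, Col5a2, Col11a1, Col11a2, Col22a1, Col6a1 and Col6a5). Col15a1, Col16a1 and Col6a2 were called lower only against P-SSCs, and Col4a1 and Col9a2 only against BM-MSCs. Col25a1 and Col8a1 had patterns of their own, and 10 chains were not called in any comparison. These patterns were not counted over all genes, so they are not shown to be particular to collagen chains. A missing call does not show equal levels.

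**Figure D3:**
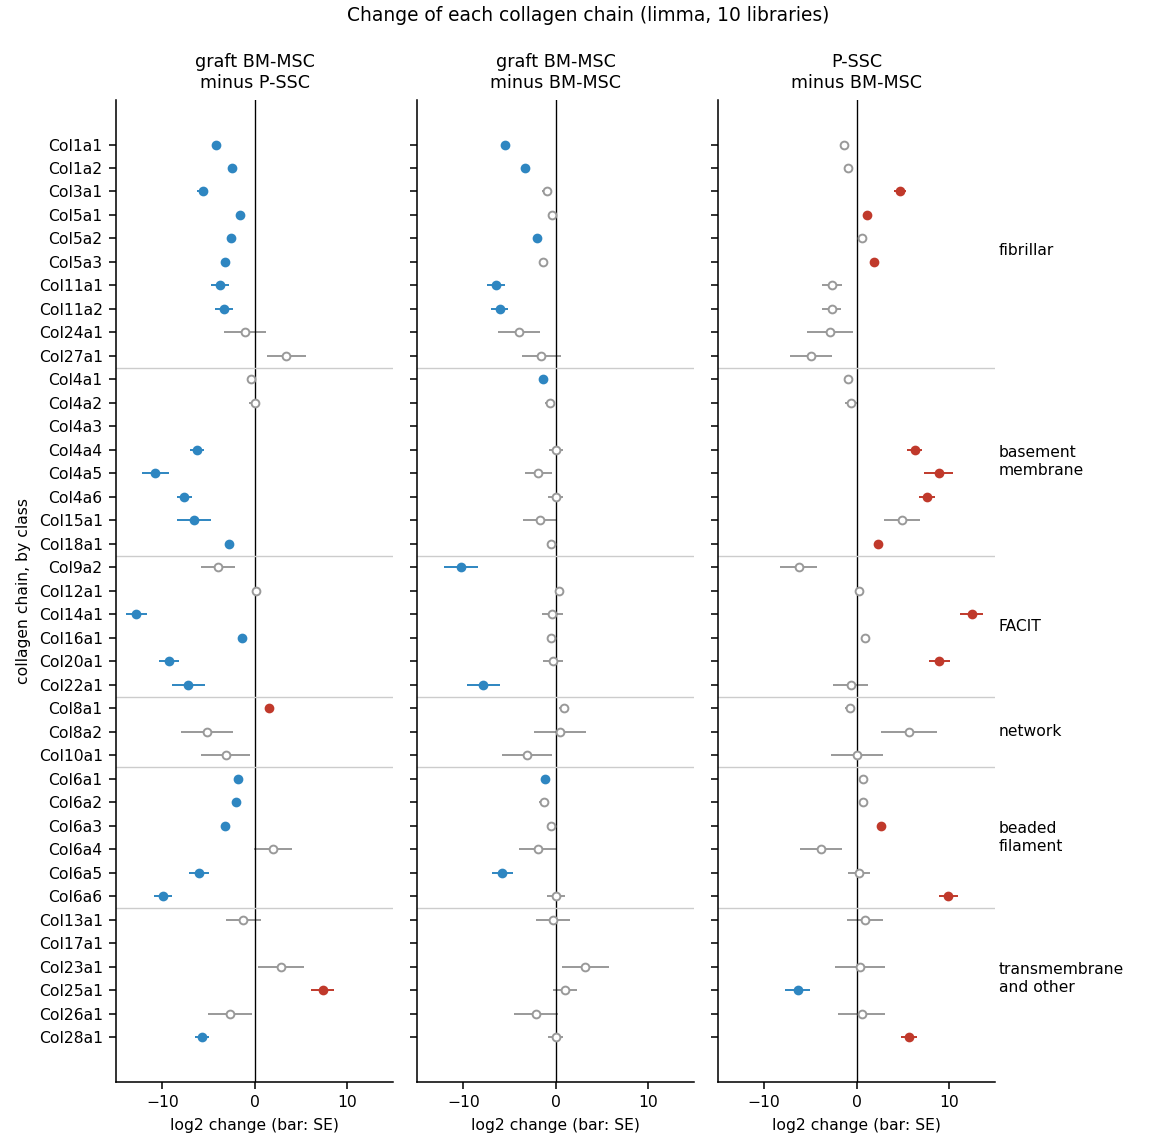
Log2 change with its SE (bar) of each collagen chain for the 3 comparisons, by class; blue points were called lower and red points higher at an adjusted p under 0.05 (limma), and open grey points were not called. The left panel has 23 blue and 2 red points, the middle panel 10 blue and no red points, and the right panel 12 red points and 1 blue point.

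Col1a1, the chain that makes up most of type I collagen, was at 14762, 9531, 10399 and 33746 normalised counts in graft BM-MSCs, at 373972, 1005120 and 786064 in BM-MSCs and at 259134, 401795 and 185603 in P-SSCs. Every graft library was far below every other library, and the steady-state groups overlapped. Its mean in graft BM-MSCs (17109 ± 11325, SD, n = 4) was 42.2-fold lower than in BM-MSCs (721718 ± 320456, n = 3; log2 change -5.48, SE 0.47, adjusted p = 0.000799). Against P-SSCs it was 16.5-fold lower (log2 change -4.17, SE 0.47, adjusted p = 0.000203). With the GC split as a covariate, the log2 change was -3.64 against P-SSCs (adjusted p = 0.0168) and -4.68 against BM-MSCs (adjusted p = 0.0965).

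Col1a2, the other type I chain, was at 70446, 37626, 60100 and 103679 in graft BM-MSCs, at 467950, 829452 and 747895 in BM-MSCs and at 355925, 442551 and 272362 in P-SSCs. It was 10.03-fold lower in graft BM-MSCs than in BM-MSCs (log2 change -3.38, SE 0.33, adjusted p = 0.00123) and 5.25-fold lower than in P-SSCs (log2 change -2.46, SE 0.33, adjusted p = 0.000511). The fall of Col1a2 was smaller than that of Col1a1 in both comparisons. Osteoblast markers (Bglap, Ibsp, Sp7 and others, 8 genes) summed to 63631 to 75634 in graft BM-MSCs, 227078 to 288763 in BM-MSCs and 7928 to 29690 in P-SSCs, with Bglap alone at 4013 to 29627, 19562 to 66165 and 2518 to 14354. Their part in the level of type I chains was not tested.

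Col3a1, the chain of type III collagen, which forms thin fibrils beside type I in soft fibrous tissue, was at 12650, 4787, 7778 and 31862 in graft BM-MSCs, at 24689, 34493 and 11719 in BM-MSCs and at 513477, 792758 and 433539 in P-SSCs. P-SSCs stood above all other libraries, and graft BM-MSCs and BM-MSCs overlapped. It was 40.6-fold lower in graft BM-MSCs than in P-SSCs, or 69.0-fold without graft BM-MSC 4 (log2 change -5.66, SE 0.58, adjusted p = 0.000117) and 24.5-fold higher in P-SSCs than in BM-MSCs (log2 change 4.70, SE 0.62, adjusted p = 0.000677). Between graft BM-MSCs and BM-MSCs the log2 change of -0.96 (SE 0.58) was not called (adjusted p = 0.326).

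The chains of type V collagen, which starts fibrils together with types I and III, were all lower in graft BM-MSCs than in P-SSCs, and Col5a2 also than in BM-MSCs. Col5a1 was at 4421, 4422, 7189 and 5499 in graft BM-MSCs, at 6552, 7372 and 7785 in BM-MSCs and at 11890, 14144 and 23329 in P-SSCs. Col5a2 was at 5338, 2028, 3094 and 6030 in graft BM-MSCs, at 12614, 17794 and 16125 in BM-MSCs and at 21524, 31514 and 17280 in P-SSCs. Both were below P-SSCs in every graft library (log2 changes -1.58, SE 0.26, adjusted p = 0.00188 and -2.59, SE 0.37, adjusted p = 0.000755), and Col5a2 alone was also called against BM-MSCs (log2 change -2.03, SE 0.37, adjusted p = 0.0102). Col5a1 was called higher in P-SSCs than in BM-MSCs at a log2 change of 1.13 (adjusted p = 0.0284), a call that edgeR and 5 of 10 fits without 1 library did not make. Col5a3 was at 1146, 812, 1752 and 2453 in graft BM-MSCs, at 2875, 5464 and 3147 in BM-MSCs and at 15073, 17257 and 9662 in P-SSCs. It was lower in graft BM-MSCs than in P-SSCs (log2 change -3.26, SE 0.40, adjusted p = 0.000299) and higher in P-SSCs than in BM-MSCs (log2 change 1.89, SE 0.42, adjusted p = 0.0169), the latter call being lost in 4 of 10 fits without 1 library.

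The type XI chains, which are best known from cartilage fibrils, were lower in graft BM-MSCs than in BM-MSCs. Between P-SSCs and BM-MSCs neither was called (adjusted p = 0.189 for Col11a1 and 0.143 for Col11a2), although the values did not overlap. Col11a1 was at 77.4, 102, 11.1 and 615 in graft BM-MSCs, at 6761, 9948 and 6869 in BM-MSCs and at 1537, 1061 and 1103 in P-SSCs. Col11a2 was at 276, 32.9, 72.5 and 950 in graft BM-MSCs, at 8590, 13351 and 10301 in BM-MSCs and at 1800, 2364 and 1002 in P-SSCs. Both were lower in graft BM-MSCs than in BM-MSCs, by 39.01-fold (log2 change -6.46, SE 1.00, adjusted p = 0.00491) and 32.3-fold (log2 change -6.05, SE 0.93, adjusted p = 0.00491), and the groups did not overlap, though DESeq2 did not call Col11a1. Without graft BM-MSC 4, the highest graft library for both, the folds were 124 for Col11a1 and 84.6 for Col11a2. Both were also called lower than in P-SSCs (adjusted p = 0.0248 and 0.0314), a call lost in 4 of 10 fits without 1 library for Col11a1 and in 6 of 10 for Col11a2, and by edgeR and with the GC covariate for both. Col9a2, a chain of the FACIT type IX that coats cartilage fibrils, was at 25.4, 0, 0 and 0 in graft BM-MSCs, at 4472, 4651 and 1085 in BM-MSCs and at 1.04, 185 and 125 in P-SSCs. It was called lower in graft BM-MSCs than in BM-MSCs (log2 change -10.28, SE 1.84, adjusted p = 0.00919), with all 45 graft reads in graft BM-MSC 1. Without that library Col9a2 was at 0 in the graft, at least 1254-fold below BM-MSCs against a floor of 3 reads per library. Chondrocyte markers (Acan, Matn1, Matn3, Cnmd, Sox9, Hapln1 and Ucma) summed to 114 to 933 in graft BM-MSCs, where 6 of the 7, Acan among them, were at 0 in every library, and to 3095 to 8564 in BM-MSCs and 386 to 584 in P-SSCs. Acan alone was at 1040 to 1475 in BM-MSCs. The part of such cells in the type XI and IX levels was not tested.

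Of the remaining fibrillar chains, Col24a1 and Col27a1 were not called in any comparison, and their highest single value was 381 normalised counts, for Col27a1 in graft BM-MSC 1.

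Type IV collagen is encoded by genes that lie head to head in pairs and are read in opposite directions. The chains of the first pair, Col4a1 and Col4a2, are in nearly all basement membranes, and the chains of the other pairs are known from kidney, smooth muscle and other special basement membranes. On GRCm38, the annotated starts of Col4a1 (chr8:11198423-11312826, minus strand) and Col4a2 (chr8:11312805-11449287, plus strand) overlap by 22 bases. The starts of Col4a4 (chr1:82448423-82586849, minus strand) and Col4a3 (chr1:82586921-82722059, plus strand) are 72 bases apart, and those of Col4a6 (chrX:141165403-141474076, minus strand) and Col4a5 (chrX:141475385-141689234, plus strand) 1309 bases apart. The promoter windows of the 3 minus-strand genes are shown because the first pair was read in all groups and the others almost only in P-SSCs, and that of Col8a1 (chr16:57624258-57754737, minus strand) because it was 1 of the 2 chains called higher in the graft. The windows hold 300 bases around the RefSeq start, most of them before it, at chr8:11312777-11313076 for Col4a1, chr1:82586800-82587099 for Col4a4, chrX:141474027-141474326 for Col4a6 and chr16:57754688-57754987 for Col8a1 (GRCm38.p6). They are written 5′ to 3′ on the minus strand. Capitals mark a match on either strand to 1 of 3 promoter motifs. The GC box was searched as GGGCGG. The CCAAT box was searched as CCAAT. The TATA box was searched as TATAAA.
Col4a1: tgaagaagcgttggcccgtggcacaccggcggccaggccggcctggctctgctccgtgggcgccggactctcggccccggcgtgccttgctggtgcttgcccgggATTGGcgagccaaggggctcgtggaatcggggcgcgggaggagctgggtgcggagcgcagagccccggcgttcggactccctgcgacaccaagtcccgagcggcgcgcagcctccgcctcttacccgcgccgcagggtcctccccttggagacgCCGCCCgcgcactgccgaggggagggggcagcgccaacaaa
Col4a4: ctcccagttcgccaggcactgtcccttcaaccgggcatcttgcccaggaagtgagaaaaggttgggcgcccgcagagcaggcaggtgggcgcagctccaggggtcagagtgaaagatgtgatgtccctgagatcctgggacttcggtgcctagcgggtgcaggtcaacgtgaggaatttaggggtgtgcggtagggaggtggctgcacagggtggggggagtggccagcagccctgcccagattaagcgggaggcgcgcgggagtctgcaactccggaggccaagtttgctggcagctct
Col4a6: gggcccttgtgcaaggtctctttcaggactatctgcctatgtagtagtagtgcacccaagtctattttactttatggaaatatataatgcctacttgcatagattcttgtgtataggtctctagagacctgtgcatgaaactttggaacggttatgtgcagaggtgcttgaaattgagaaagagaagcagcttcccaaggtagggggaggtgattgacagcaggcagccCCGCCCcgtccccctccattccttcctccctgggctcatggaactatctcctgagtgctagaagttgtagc
Col8a1: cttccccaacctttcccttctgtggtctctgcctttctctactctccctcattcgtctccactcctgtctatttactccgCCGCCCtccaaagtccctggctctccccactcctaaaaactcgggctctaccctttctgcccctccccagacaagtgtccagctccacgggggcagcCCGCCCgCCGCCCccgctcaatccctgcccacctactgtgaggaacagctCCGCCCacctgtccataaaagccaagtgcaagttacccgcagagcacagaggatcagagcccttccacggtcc

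The Col4a1 window held 1 CCAAT box and 1 GC box, the Col4a6 window 1 GC box, the Col4a4 window none of the 3 motifs and the Col8a1 window 4 GC boxes. GC content was 74.0% in the Col4a1 window, 63.3% in that of Col4a4, 48.3% in that of Col4a6 and 60.3% in that of Col8a1. RefSeq windows were found for 32 of the 39 chains, 34 windows in all. Of these, 64.7% held a GC box, 32.4% a CCAAT box and 14.7% a TATA box, where 35.7%, 37.4% and 13.6% of all 32851 windows of this length held them. A match of letters is no evidence of binding.

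Col4a1 was at 7652, 4942, 7634 and 11205 in graft BM-MSCs, at 16725, 21283 and 19536 in BM-MSCs and at 8371, 9849 and 11753 in P-SSCs. BM-MSCs stood above all other libraries, and graft BM-MSCs and P-SSCs overlapped. It was 2.44-fold lower in graft BM-MSCs than in BM-MSCs (log2 change -1.34, SE 0.26, adjusted p = 0.0131), a call lost without BM-MSC 2+4 or without BM-MSC 3 (adjusted p up to 0.0641). Col4a2 was at 6387, 1493, 4328 and 7331 in graft BM-MSCs, at 4919, 7113 and 7775 in BM-MSCs and at 2958, 2692 and 9513 in P-SSCs, and all 3 groups overlapped.

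The other type IV chains were read almost only in P-SSCs. Col4a5 was at 2084, 1810 and 1432 in P-SSCs, at 0 in every graft library, and at 50.1 in BM-MSC 1 and 0 in the other BM-MSC libraries. Counted against a floor of 3 reads per library, the graft level was at least 722-fold below P-SSCs (adjusted p = 0.000569). This and all other bounds against that floor cover counting error only, and not the loss of a gene from a whole library. Col8a2, for example, was at 419, 0, 0 and 1725 in graft BM-MSCs. Its call for P-SSCs over BM-MSCs (adjusted p = 0.00393) was made by neither edgeR nor DESeq2. Col4a6, read from the other strand of the same locus, was at 316, 220 and 113 in P-SSCs and at 0 in all 7 other libraries, at least 88.1-fold lower in the graft (adjusted p = 0.00014) and at least 70.2-fold higher in P-SSCs than in BM-MSCs (adjusted p = 0.000306, and 0.0712 with edgeR). Col4a4 was at 51.9, 57.3 and 151 in P-SSCs and at 0 in all other libraries, at least 35.3-fold lower in the graft and at least 28.1-fold higher in P-SSCs than in BM-MSCs. The limma calls on Col4a4 (adjusted p = 0.000301 and 0.000638) were not made by edgeR in either comparison, and without P-SSC 4 the bounds were 22.2-fold and 17.7-fold. Its neighbour Col4a3, which was too low to test, was at 38.4, 0 and 47.5 in P-SSCs and reached 7.31 in 1 BM-MSC library. The markers of smooth muscle and pericytes (Acta2, Myh11, Rgs5 and others, 6 genes), cells that surround themselves with basement membrane, summed to 11932 to 30444 in P-SSCs, to 2012 to 3856 in graft BM-MSCs and to 1668 to 9186 in BM-MSCs. Of 6 endothelial markers listed, only 3 could be read here, Cdh5, Emcn and Tie1. These were at 0 in every graft library and summed to at most 58.6 in P-SSCs and 228 in BM-MSCs. The part of such cells was not tested.

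Col15a1 and Col18a1 encode collagens that link basement membranes to the tissue beneath, and Col18a1 is the source of endostatin. Col18a1 was at 691, 828.9, 340 and 530 in graft BM-MSCs, at 946, 1295 and 453 in BM-MSCs and at 4143, 4934 and 3235 in P-SSCs. It was lower in graft BM-MSCs than in P-SSCs (log2 change -2.83, SE 0.42, adjusted p = 0.00105) and higher in P-SSCs than in BM-MSCs (log2 change 2.30, SE 0.45, adjusted p = 0.0081). Col15a1 was at 4.52, 0, 2.01 and 76.8 in graft BM-MSCs, at 4.18, 5.27 and 225 in BM-MSCs and at 681, 294 and 965 in P-SSCs. Its call against P-SSCs (log2 change -6.59, SE 1.80, adjusted p = 0.0287) was lost in 6 of 10 fits without 1 library, with edgeR (0.139), with the GC covariate (0.186) and with a pseudocount of 0.1 (0.051).

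Among FACIT chains, Col14a1 (chr15:55307750-55520803, plus strand) made the sharpest contrast. This chain binds to type I fibrils in tendon and other dense tissue. It was at 0, 0, 5.04 and 5.18 in graft BM-MSCs, at 3.13, 3.16 and 0.986 in BM-MSCs and at 19792, 17450 and 17105 in P-SSCs. Over the group, graft BM-MSCs had 11 reads of it and BM-MSCs 7, against 50400 in P-SSCs. The log2 change was -12.84 (SE 1.13, adjusted p = 4.97e-05) in graft BM-MSCs against P-SSCs and 12.44 (SE 1.21, adjusted p = 0.000127) in P-SSCs against BM-MSCs, and no fit without 1 library lost either call. Col20a1 was at 136, 1363 and 1306 in P-SSCs, at 0.986 (1 read) in BM-MSC 3 and at 0 in the other libraries, with a level in the graft at least 380-fold below P-SSCs (adjusted p = 0.000244).

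Tendon markers (Scx, Tnmd, Mkx, Fmod and Thbs4) summed to 95295 to 97050 in P-SSCs, to 680 to 2025 in graft BM-MSCs and to 1537 to 4115 in BM-MSCs. The part of tendon cells in the FACIT levels was not tested.

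Col22a1, Col16a1 and Col12a1 were read in all 3 groups. Col22a1, known from the junctions of muscle with tendon and of cartilage with synovial fluid, was at 64.4, 0, 0 and 219 in graft BM-MSCs, at 1320, 3769 and 3143 in BM-MSCs and at 902, 1895 and 2410 in P-SSCs. It was lower in graft BM-MSCs than in P-SSCs (log2 change -7.19, SE 1.76, adjusted p = 0.0171) and than in BM-MSCs (log2 change -7.84, SE 1.76, adjusted p = 0.0254), and edgeR made neither call. Leaving out any 1 of the BM-MSC libraries ended the second call, and leaving out P-SSC 2+5 or P-SSC 4 the first. Col16a1 was at 1797, 873, 2736 and 2040 in graft BM-MSCs, at 2566, 3480 and 1694 in BM-MSCs and at 5199, 3958 and 4676 in P-SSCs, with a log2 change of -1.41 (SE 0.38, adjusted p = 0.0285) against P-SSCs that was lost in 4 of 10 fits without 1 library and under edgeR. Col12a1, a relative of Col14a1 that also coats type I fibrils, was at 1580, 1246, 1263 and 1648 in graft BM-MSCs, at 1070, 1039 and 1211 in BM-MSCs and at 1499, 708 and 1962 in P-SSCs. It was not called in any comparison, with log2 changes of 0.16 (SE 0.35) against P-SSCs and 0.37 (SE 0.35) against BM-MSCs.

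Col8a1, a short-chain network collagen of vessel walls and of the cornea, was called higher in graft BM-MSCs than in P-SSCs. It was at 41399, 16815, 7397 and 25159 in graft BM-MSCs, at 8491, 12745 and 10557 in BM-MSCs and at 8250, 4577 and 7068 in P-SSCs. Graft BM-MSC 3 lay within the range of the P-SSCs, so that the groups overlapped. The log2 change against P-SSCs was 1.56 (SE 0.48, adjusted p = 0.049), just inside the threshold, and was lost in 9 of 10 fits without 1 library, with adjusted p from 0.00476 to 0.184, the call being kept without graft BM-MSC 3. Against BM-MSCs the log2 change of 0.86 (SE 0.48) was not called (adjusted p = 0.294). Its partner in type VIII collagen, Col8a2, was at 419, 0, 0 and 1725 in graft BM-MSCs, at 0, 155 and 58.2 in BM-MSCs and at 826, 403 and 3652 in P-SSCs, with no call. Col10a1, the chain of hypertrophic cartilage, was at 635 in BM-MSC 2+4, at 700 in P-SSC 4 and at 0 in all other libraries.

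The type VI chains were lower in the graft than in P-SSCs with 1 exception. Col6a1 was at 30186, 14378, 18574 and 23219 in graft BM-MSCs, at 40462, 57246 and 47768 in BM-MSCs and at 77484, 93038 and 58224 in P-SSCs, and no group overlapped with another. The log2 change was -1.85 (SE 0.26, adjusted p = 0.000719) against P-SSCs and -1.21 (SE 0.26, adjusted p = 0.0214) against BM-MSCs. The second of these calls was not made by edgeR, and it was lost without graft BM-MSC 3, without BM-MSC 2+4 and without BM-MSC 3. Col6a2 was at 19744, 4981, 13167 and 21884 in graft BM-MSCs, at 26637, 40417 and 31410 in BM-MSCs and at 51413, 69707 and 40312 in P-SSCs. The log2 change was -2.02 (SE 0.45, adjusted p = 0.0105, and 0.0548 without P-SSC 2+5, 0.0546 with only both of these groups in the fit and 0.252 with the GC covariate) against P-SSCs and -1.32 (SE 0.45, adjusted p = 0.105) against BM-MSCs, where it was not called although the groups did not overlap.

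Col6a3, the longest of the common type VI chains, separated P-SSCs from both marrow groups. It was at 1250, 837, 1171 and 1478 in graft BM-MSCs, at 1807, 1887 and 1466 in BM-MSCs and at 14047, 12308 and 7331 in P-SSCs. The log2 change was -3.22 (SE 0.29, adjusted p = 5.51e-05) in graft BM-MSCs against P-SSCs and 2.66 (SE 0.31, adjusted p = 0.000341) in P-SSCs against BM-MSCs. The genes of the chains that can take its place, Col6a6, Col6a5 and Col6a4, lie side by side on chromosome 9 (chr9:105687809-105828160, chr9:105856078-105960643 and chr9:105989454-106096783, all on the minus strand), and each had a pattern of its own. Col6a6 was at 1538, 1564 and 384 in P-SSCs and at 0 in all 7 other libraries, at least 473-fold lower in the graft (adjusted p = 8.07e-05) and at least 377-fold higher in P-SSCs than in BM-MSCs (adjusted p = 0.000179). Col6a5 was at 34.5, 175 and 26.6 in BM-MSCs, at 108, 100.6 and 25.2 in P-SSCs and at 0 in every graft library, which put it at least 32.02-fold and 31.7-fold below these groups (adjusted p = 0.0132 and 0.00386). Against BM-MSCs, edgeR (adjusted p = 0.0537) and the fit without BM-MSC 2+4 (0.0508, with a bound of 12.4-fold) did not call it, and under quantile normalization neither call was made. Col6a4 was at 222 in graft BM-MSC 4, at 41.8 and 68.5 in BM-MSC 1 and 2+4 and at 0 in all other libraries, and was not called. How reads shared by these related genes were assigned is not stated, so their values are uncertain to that extent.

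Of the transmembrane and other chains, Col25a1 ran against the rest. This transmembrane collagen is known from neurons and developing muscle. It was at 385, 50.6, 145 and 246 in graft BM-MSCs, at 237, 17.9 and 119 in BM-MSCs and at 0 in every P-SSC library. Graft BM-MSCs stood at least 62.9-fold above P-SSCs (adjusted p = 0.00239). P-SSCs stood at least 38.0-fold below BM-MSCs (adjusted p = 0.0121), a call lost without BM-MSC 1, where the bound was 20.9-fold, or without BM-MSC 3. Col28a1, known from peripheral nerve, was at 20.8, 51.0 and 128 in P-SSCs and at 0 in all 7 other libraries. Its level was at least 27.1-fold lower in the graft (adjusted p = 0.00074) and at least 21.6-fold higher in P-SSCs than in BM-MSCs (adjusted p = 0.00152), and edgeR made neither call. Without P-SSC 4 these bounds were 14.6-fold and 11.6-fold. Col17a1, the transmembrane collagen of hemidesmosomes, was at 35.3, 44.6 and 11.6 in P-SSCs and at 0 elsewhere. Col13a1, Col23a1 and Col26a1 were not called, with single values up to 1276 normalised counts, for Col26a1 in graft BM-MSC 4.

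Chains that share a molecule were compared within each library, where the size factor cancels, with the exact permutation test, two-sided, on library values. The smallest p that 4 against 3 libraries allow is 0.0571 and that 3 against 3 allow is 0.1, so that no ratio could pass 0.05. The log2 ratio of Col1a1 to Col1a2 was -2.25, -1.98, -2.53 and -1.62 in graft BM-MSCs, -0.32, 0.28 and 0.07 in BM-MSCs and -0.46, -0.14 and -0.55 in P-SSCs. Every graft library was below every other library. The mean was -2.10 ± 0.39 in graft BM-MSCs (SD, n = 4), 2.10 log2 units below BM-MSCs (0.01 ± 0.31) and 1.71 below P-SSCs (-0.38 ± 0.22), each with an exact p = 0.0571 and 0.229 after adjustment over the 12 ratios compared. Per kilobase, the mean ratio of Col1a1 to Col1a2 was 0.217 in graft BM-MSCs, 0.920 in BM-MSCs and 0.697 in P-SSCs. P-SSC 4, on the graft's side of the GC split, had the lowest such ratio of the P-SSCs, 0.615 against 0.657 and 0.819, and the highest graft library had 0.294. GC content is 58.9% in the Col1a1 transcript and 55.7% in that of Col1a2, so both are of middle GC content as defined above. GC-rich transcripts stood high in the graft libraries and in P-SSC 4, while Col1a1, with the higher GC content, was low there relative to Col1a2. The part of the GC split in this ratio was not tested.

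The log2 ratio of Col5a1 to Col5a2 was -0.27, 1.12, 1.22 and -0.13 in graft BM-MSCs, -0.94, -1.27 and -1.05 in BM-MSCs and -0.86, -1.16 and 0.43 in P-SSCs. Graft BM-MSCs stood 1.57 above BM-MSCs with no overlap (exact p = 0.0571, adjusted 0.229) and overlapped with P-SSCs through P-SSC 4. The log2 ratios of Col4a1 to Col4a2 (0.85 ± 0.62 in graft BM-MSCs, 1.56 ± 0.22 in BM-MSCs and 1.23 ± 0.82 in P-SSCs) overlapped between all groups, with P-SSC 4 the lowest P-SSC library at 0.31. Those of Col6a1 to Col6a2 (0.68 ± 0.61, 0.57 ± 0.06 and 0.51 ± 0.09 in the same order) also overlapped, and exact p ranged from 0.171 to 0.857 over these 6 comparisons.

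**Figure D4:**
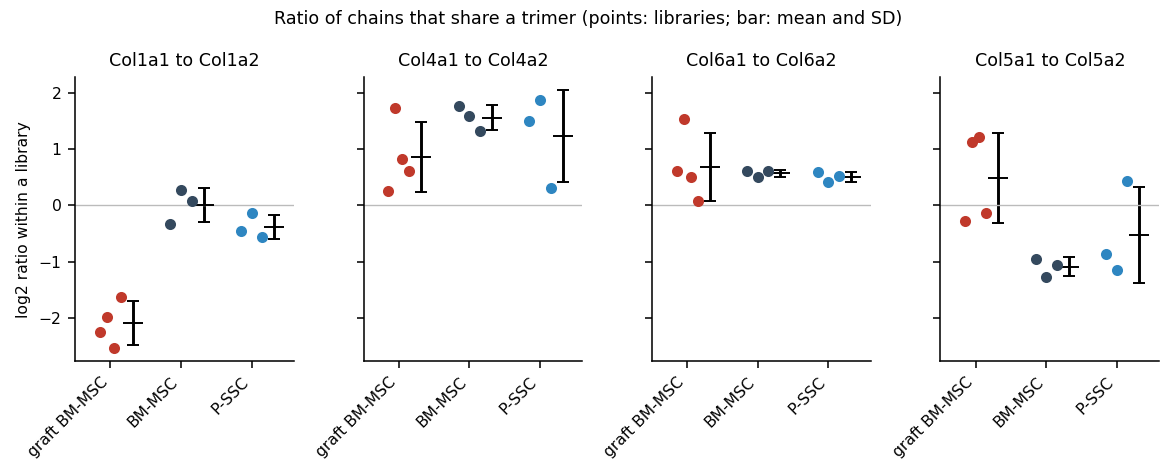
Log2 ratio of 2 chains within a library for 4 pairs of chains, by group, with points for libraries and bars for the mean and SD (n = 4 for the graft and n = 3 for either other group). The Col1a1 to Col1a2 ratio lies between -2.53 and -1.62 in the graft, below the -0.55 to 0.28 of all other libraries, and the Col4a1 to Col4a2 and Col6a1 to Col6a2 ratios overlap between groups.

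Collagen chains are modified and folded in the endoplasmic reticulum, trimmed of their propeptides outside the cell, joined by lysyl oxidases and bound by integrins and discoidin domain receptors. Of 47 genes listed for these steps, 43 were tested. Against P-SSCs, graft BM-MSCs had 6 higher and 12 lower (18.1% of all genes were called; 9 and 7 of the listed genes under quantile normalization, and only 1 and 5 with edgeR), against BM-MSCs 3 were higher and 5 lower (7.67% of all genes), and between P-SSCs and BM-MSCs 2 were higher and 2 lower (9.15% of all genes). The median log2 change of the listed genes was -0.50 for graft BM-MSCs against either group, near that of all genes, and 0.15 for P-SSCs against BM-MSCs. Of the 18 calls against P-SSCs, edgeR made those of Serpinh1, Plod1, P4ha1, Pcolce2, Itga1 and Itga11, and not those of the other 12 genes. Of the 8 calls against BM-MSCs it did not make those of Crtap, Colgalt1 and P4hb, and of the 4 between P-SSCs and BM-MSCs not that of Pcolce2.

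Of 22 genes of chain modification, folding and secretion, graft BM-MSCs had 2 higher and 4 lower against P-SSCs and 3 higher and 4 lower against BM-MSCs, and none was called between P-SSCs and BM-MSCs. Serpinh1, the chaperone of procollagen (HSP47), was at 26766, 21347, 20917 and 32772 in graft BM-MSCs, at 81096, 96307 and 98396 in BM-MSCs and at 67468, 91020 and 65429 in P-SSCs. It was lower in graft BM-MSCs than in P-SSCs (log2 change -1.56, SE 0.19, adjusted p = 0.000338) and than in BM-MSCs (log2 change -1.87, SE 0.19, adjusted p = 0.00151), with no overlap. Plod1, a lysyl hydroxylase, was at 1517 to 2109 in graft BM-MSCs and at 5026 to 5706 in P-SSCs (log2 change -1.61, SE 0.19, adjusted p = 0.000284).

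Crtap and P3h3, of prolyl 3-hydroxylation, and Colgalt1, which adds galactose to hydroxylysine, were higher. Crtap was at 9065, 5432, 9344 and 7612 in graft BM-MSCs, at 413, 332 and 613 in BM-MSCs and at 182, 218 and 4694 in P-SSCs (adjusted p = 0.0259 against BM-MSCs and 0.0185 against P-SSCs). Colgalt1 was at 2376 to 2891 in graft BM-MSCs, at 172 to 279 in BM-MSCs (adjusted p = 0.0213) and at 338, 269 and 3548 in P-SSCs. P3h3 was at 2696 to 3535 in graft BM-MSCs, at 193 to 609 in BM-MSCs (adjusted p = 0.00982) and at 367, 870 and 1547 in P-SSCs (adjusted p = 0.026). P-SSC 4, the P-SSC library on the graft's side of the GC split, was the highest P-SSC library for all of these, and the part of the split was not tested.

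Of 8 genes of propeptide removal, graft BM-MSCs had 1 higher and 3 lower against P-SSCs and none called against BM-MSCs. Pcolce2, an enhancer of propeptide cleavage, was at 0, 0, 157 and 0.863 in graft BM-MSCs, at 210, 123 and 61.1 in BM-MSCs and at 8183, 11141 and 25926 in P-SSCs (log2 change -11.65, SE 1.62, adjusted p = 0.000675 for graft BM-MSCs against P-SSCs, and 6.82, SE 1.73, adjusted p = 0.0328 for P-SSCs against BM-MSCs). Its relative Pcolce was lower in graft BM-MSCs than in P-SSCs (log2 change -1.19, adjusted p = 0.0329), as was the procollagen protease Adamts3 (log2 change -5.27, adjusted p = 0.0408), which was at 0 in 3 of 4 graft libraries. The procollagen protease Adamts2 was higher, at 12717 to 18406 in graft BM-MSCs against 2453, 2704 and 13419 in P-SSCs (log2 change 1.85, adjusted p = 0.0326), with P-SSC 4 within the graft range.

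Of 5 lysyl oxidase genes, Lox was higher in graft BM-MSCs (3878, 3765, 5235 and 10826) than in P-SSCs (276, 130 and 2177; log2 change 3.64, SE 0.80, adjusted p = 0.00986), and Loxl2 was lower (log2 change -1.90, SE 0.49, adjusted p = 0.0218). Lox was at 1149, 717 and 731 in BM-MSCs, with no call against the graft. Of 8 collagen receptors, 2 rose and 4 fell in graft BM-MSCs against P-SSCs. Itga11, the integrin chain for fibrillar collagen on fibroblasts, was at 1476 to 2306 in graft BM-MSCs, at 3191 to 5265 in BM-MSCs and at 8309 to 11173 in P-SSCs, and was called in all 3 comparisons (adjusted p = 8.26e-05, 0.0132 and 0.0106). Itga1, the integrin chain for type IV collagen, was at 4995, 669, 1269 and 3812 in graft BM-MSCs, at 2197, 1694 and 1437 in BM-MSCs and at 261, 206 and 351 in P-SSCs (adjusted p = 0.00875 against P-SSCs, and 0.0283 for P-SSCs against BM-MSCs). Ddr1 was lower in P-SSCs than in BM-MSCs (log2 change -2.54, adjusted p = 0.00139), while Ddr2 (log2 change -2.90, adjusted p = 0.0391) and Itga2 (log2 change -7.03, adjusted p = 0.0306) were lower in graft BM-MSCs than in P-SSCs. Reads of the leukocyte gene Ptprc were at 0 in 2 of 4 graft libraries, reached 196 in graft BM-MSC 3, were at 16.7 to 78.0 in BM-MSCs and were at 0 in P-SSCs.

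**Figure D5:**
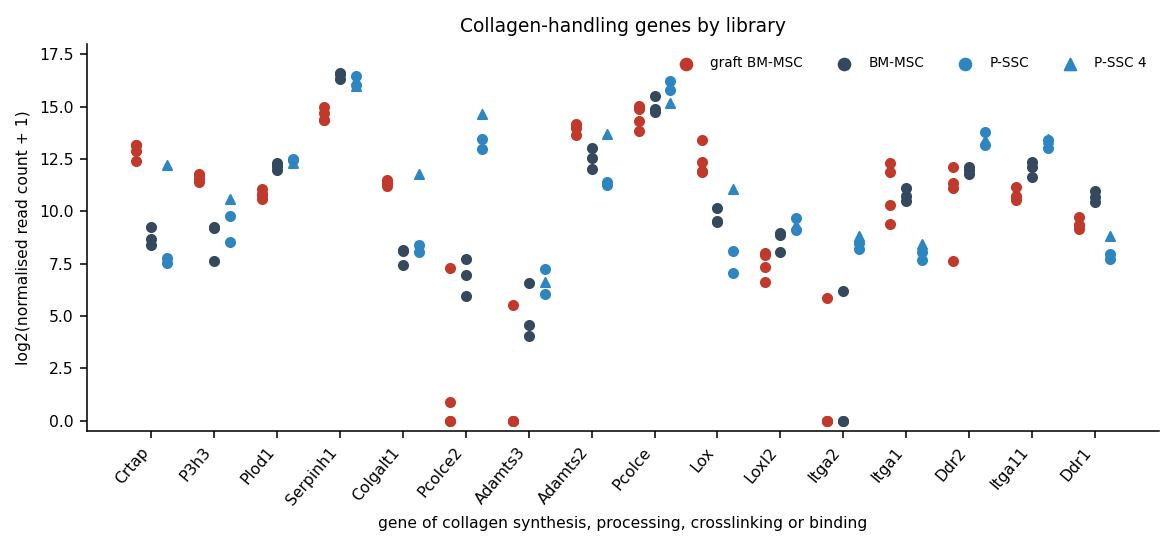
Log2(normalised read count + 1) in each library of 16 called genes of collagen modification, processing, crosslinking and binding, the up to 4 with the largest change of each list and comparison, coloured by group, with P-SSC 4 as a triangle. For Crtap, Colgalt1, Adamts2 and Lox the triangle lies far above the other P-SSC points, toward the graft points, and for Serpinh1, Plod1 and Itga11 it lies with the other P-SSC points.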

How the data were processed

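Per the labels, poly-A RNA of sorted cells was sequenced on 10 libraries. In the deposited table each gene has 1 signal value per library, for which the authors mapped and counted reads and divided each count by a size factor. The methods name GRCm38, the submitters' processing notes GRCm39 with STAR 2.5, Subread 1.4.6 and DESeq2 1.26.0; strand and the treatment of shared reads are not given in the sources used here. Column names gave each library's group, and 0 columns were left over. Values were whole multiples of the value of 1 read (100% within 0.05), which gave reads for edgeR and DESeq2 and for depth. In graft BM-MSC 3 that value is 1.01, so near 1 that this step could not be checked from the file alone.

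Values were tested as log2(value + 1), a pseudocount of 1, which understates changes of low genes. Genes with a mean of at least 10 (13644 of 15078, 1434 removed) entered 1 limma fit (version 3.58.1, variance trend) of 3 groups over 10 libraries, two-sided, with Benjamini-Hochberg adjustment over all of them. Coordinates, lengths and GC content are of GENCODE M21 (GRCm38), matched by Ensembl ID for 15052 IDs and not for 26. Alternatives were other pseudocounts, filters, scalings and fits, edgeR 4.0.16, DESeq2 1.42.0, a replicate block, the GC split of the libraries as a covariate, and each library left out. Methods were tested on simulated data. Replicates of a group differed by more than sampling noise (lowest ratio of chi-square to degrees of freedom, 72.6); p-values measure the spread between these libraries.

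The members, classes and gene lists were chosen with earlier results of these data known. Values in every library are given for the 30 chains with a group mean of at least 1000 or a call in any comparison, and the other 9 by range. From each list of collagen-handling genes up to 4 called genes with the largest change per comparison are named, with the markers Ptprc, Bglap, Acan, Cxcl12 and Postn. Of chains in the class lists, Col7a1, Col19a1 and Col21a1 were not analysed here. The result of 1 marker list is not reported here. Tango2 stands in the list of folding and secretion genes by its name and was not called.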

Additional observations from a re-analysis of the deposited data

Results flagged for a closer look

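In Col9a2, 1 graft library stood apart from the other 3. Graft BM-MSC 1 had 4.72 on the log2(value + 1) scale, or 25.4 normalised counts, and the other 3 graft libraries had 0. Its gap to the nearest library took up the whole range of the group, above the critical value of Dixon's test, 0.829 for 4 samples. With the other 3 libraries at 0, any value above 0 would do so, and the test cannot tell how unusual this value is. Of the values described, 28 groups of graft libraries were examined. Chance passes the critical value in about 1 of 20 groups of normally distributed values, which values held at 0 are not. All 3 BM-MSC libraries were at 1085 or more.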

How the results depend on the processing

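No called chain changed direction under any alternative run. Without 1 library at a time, 18 to 24 chains passed in the graft against P-SSCs, 5 to 11 against BM-MSCs (5 without BM-MSC 2+4) and 10 to 15 for P-SSCs against BM-MSCs. edgeR called 18, 7 and 8 chains, against 25, 10 and 13. Same-numbered libraries deviated from their group means with correlations of -0.0191 to 0.0295. Joined libraries were not counted as same-numbered, and BM-MSC 2+4 with P-SSC 2+5 had 0.0811, the highest of all pairs. With 3 or 4 libraries a group, these values cannot tell whether libraries that share a number share mice. A replicate block left 4, 0 and 0 chains called by limma (23, 11 and 17 at an unadjusted p under 0.05), and 269, 3 and 54 of all genes. With the GC split as a covariate, 17, 0 and 12 were called. Of the 10 calls against BM-MSCs 7 then had an unadjusted p under 0.05, as did 3 chains not called before. Leaving the block aside, 15 of 25 calls against P-SSCs were kept under all those of the 20 alternatives that tested them. Of these 15, Col4a6 was too low to be tested under the stricter filter on low values (a mean of at least 100). For P-SSCs against BM-MSCs, 6 of 13 were kept under all 21. Against BM-MSCs, 0 of 10 were kept under 20, or 4 of 10 (Col1a1, Col1a2, Col11a2 and Col9a2) with the GC covariate also left aside. Of collagen-handling genes, edgeR called 6 and 5 in the graft against P-SSCs and BM-MSCs (18 and 8 with limma), and quantile normalization and DESeq2 each called 8 for P-SSCs against BM-MSCs (4 with limma). Quantile normalization called 1247 of 2488 genes higher in the graft against P-SSCs (830 of 2464 without it) and 588 of 1023 against BM-MSCs (356 of 1046). It called 2 chains higher and 21 lower against P-SSCs. Without Col1a1 and Col1a2 the collagen share of reads was 0.719%, 1.05% and 3.95% in graft BM-MSCs, BM-MSCs and P-SSCs. Without 1 library, the Col4a1 to Col4a2 log2 ratio of P-SSCs minus BM-MSCs ranged from -0.66 to 0.13 (0.13 without P-SSC 4, -0.47 without P-SSC 1), and the Col6a1 to Col6a2 ratio from -0.11 to 0.37 for graft BM-MSCs minus P-SSCs and from -0.17 to 0.31 minus BM-MSCs. Causes were not tested. With 3 or 4 libraries a group and 3 reads as the floor, chains at 0 are undetected, not absent.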
